A study of Mus musculus with 4 samples.

Results

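Gamma-delta T cells were found by their own receptor transcripts among the cells of mouse heart grafts. A cell was counted as a member if it had over 200 detected genes, under 20% mitochondrial UMIs (unique molecular identifiers, 1 per captured transcript molecule), at least 1 UMI of *Trdc*, at least 3 UMIs over *Cd3d*, *Cd3e* and *Cd3g*, no UMI of *Cd4*, *Cd8a*, *Cd8b1* or *Cdh5*, and under 10 UMIs of *Lyz2*. The first pair of conditions left 44626 of the 53824 deposited cells, and 65 of these were members. Since the cells were chosen by their UMIs of these genes, the levels of these genes in the members are described and support nothing.

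The hearts came from 2 allogeneic and 2 syngeneic grafts taken on day 5 after transplantation into C57BL/6J mice. The allogeneic donors were Balb/C and the syngeneic donors C57BL/6J, all males between 8 and 10 weeks of age. The hearts were placed in the abdomen of the recipient, and no treatment was named in the labels. The counts stand in a single matrix whose barcodes end in 1 of 4 suffixes, called libraries 1 to 4 here, and no source used here pairs a suffix with a graft. The graft types were therefore not compared. The 4 libraries were pooled as 1 sample for the comparisons of cell groups. Cell groups could have been paired within libraries, but no difference was tested. In these 4 libraries 308 barcode sequences occurred more than once, in 616 deposited cells, 2 of them members.

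Gamma-delta T cells carry a T-cell receptor made of a gamma and a delta chain in place of the alpha and beta chains of CD4 and CD8 T cells. Mouse gamma-delta T cells are known to be set in the thymus to 1 of 2 effector programmes. One makes interleukin 17, depends on the transcription factors encoded by *Maf* and *Sox13*, and is marked by the scavenger receptor gene *Cd163l1*. The other resembles type 1 and cytotoxic lymphocytes, with *Tbx21*, *Eomes*, *Ifng*, granzymes and the costimulatory receptor gene *Cd27*. Interleukin 17 calls neutrophils into tissue, and gamma-delta T cells are among its early sources in several injured organs.

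Libraries 1 to 4 held 12, 4, 9 and 40 members, so library 4 alone gave most of them and each pooled level leans on it. Members had a median of 7028 UMIs, from 1396 to 27759, and the library medians were 7104, 5183.5, 7028 and 7085 UMIs. The lowest and the highest of these cells were both in library 4. They were set beside 3 groups cut by the same filters. These were 626 CD8 T cells, 259 CD4 T cells and 205 natural killer (NK) cells without a *Cd3* UMI, with medians of 14991.5, 8668 and 9155 UMIs. Levels are pooled UMIs of a gene per 1000000 non-mitochondrial UMIs (CPM) with exact Poisson 95% intervals, and shares have exact Clopper-Pearson 95% intervals. All intervals cover counting error only.

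Members made up 5.25% (4.08 to 6.65) of the 1237 cells with at least 3 *Cd3* UMIs. The share was 15.4% (8.21 to 25.3) of 78 T cells in library 1, 5.13% (1.41 to 12.6) of 78 in library 2, 13% (6.14 to 23.3) of 69 in library 3 and 3.95% (2.84 to 5.34) of 1012 in library 4. The intervals of libraries 1 and 3 lay above that of library 4, whereas that of library 2 overlapped the other 3. As a share of all filtered cells the order was another one, with 0.116%, 0.0304%, 0.0914% and 0.354% in libraries 1 to 4. The plot of shares by library shows the members with and without a *Cd163l1* UMI apart.

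**Figure D1:**
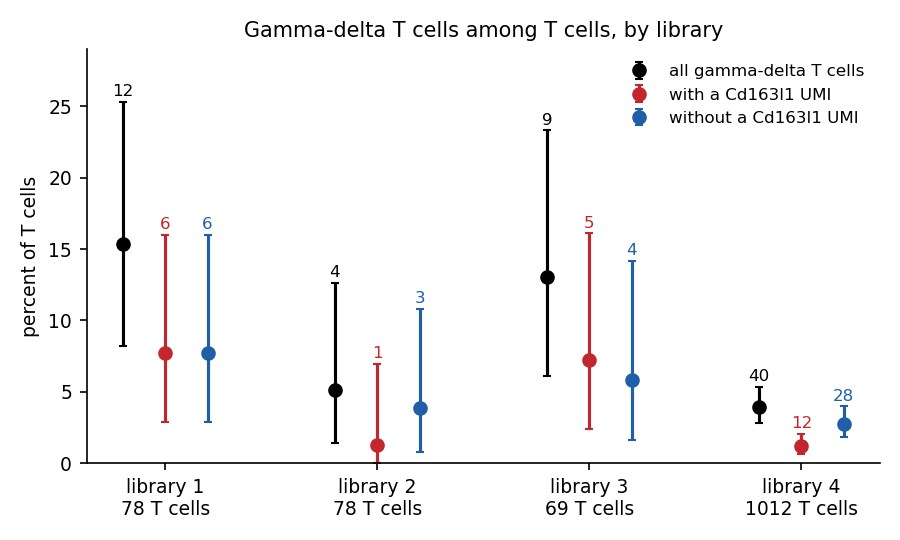
Percent of T cells that were gamma-delta T cells in each of 4 libraries (points), with exact 95% binomial intervals (lines) and the number of cells above each line. Black is all members, red those with a Cd163l1 UMI and blue those without. Library 4 held the most members and the lowest share of T cells.

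The label was checked against the gamma chain, which the rule did not use. *Tcrg-C1*, *Tcrg-C2* and *Tcrg-C4*, the constant genes of the gamma chain, were at 318 CPM (270.4 to 371), 158 CPM (125 to 197) and 138 CPM (107 to 175) in the members. In CD8 T cells they were at 2.28, 18.7 and 1.95 CPM and in CD4 T cells at 0.619, 1.55 and 1.55 CPM. These constant genes resemble each other in sequence, so the split of reads among them is uncertain. A UMI of any of them was seen in 54 of 65 members, 83.1% (71.7 to 91.2), against 8.79% (6.69 to 11.3) of the deeper CD8 T cells. *Trac*, the constant gene of the alpha chain, was at 62 CPM (42.1 to 88) in the members, with a UMI in 18 of 65, against 599 CPM in CD8 and 796 CPM in CD4 T cells. *Trbc1* and *Trbc2*, the beta chain constant genes, were higher than *Trac* in the members, at 458 and 709.8 CPM. With 10 CPM added, *Trac* and *Trbc2* were at least 2-fold lower than in CD8 and in CD4 T cells, whereas *Trbc1* was not. *Trdc* was found in 11 of 12361 endothelial cells, 0.0890%, at a median depth of 7832 UMIs, and *Trac* in 265 of them, 2.14%.

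The label did not hold for every member. A UMI of *Trdc* was present in 360 filtered cells, and in 78 of the 205 NK cells, where it reached 60.2 CPM against 1729.6 CPM in the members. In 11 members no gamma constant gene was seen. Of these 11, 6 had *Ncr1*, *Klrb1c*, *Eomes*, *Klrd1*, *Nkg7* and *Gzma*, genes of NK cells, in every cell, and none of them had *Il7r* or *Trac*. These 6 had a median of 1 *Trdc* UMI at a median depth of 18916.5 UMIs and lay in libraries 3 (1 cell) and 4 (5 cells). They are kept under the rule. For several effector and receptor genes, the level in the 54 members with a gamma constant UMI is given beside that in all members. Members with a gamma constant UMI alone made up 4.37% (3.30 to 5.66) of T cells, and 15.4% (8.21 to 25.3), 1.28% (0.0325 to 6.94), 10.1% (4.18 to 19.8) and 3.36% (2.34 to 4.66) in libraries 1 to 4. In library 2 only 1 of the 4 members had such a UMI, and the interval of library 1 alone then lay above that of library 4.

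Values near the thresholds were as follows. With 1 *Trdc* UMI there were 12 members, of which 6 had a gamma constant UMI, 9 had 2 to 4, 16 had 5 to 9 and 28 had at least 10, of which 27 had a gamma constant UMI. Just outside stood the 212 T cells without *Cd4*, *Cd8* or *Trdc* UMIs, of which 37 had a gamma constant UMI and 153 had *Trac*. A *Cd3* sum of 3 held 2 members. A sum of 2 would have added 13 cells, 3 of them with a gamma constant UMI and 10 with *Gzma*. Of the cells that met the rest of the rule, 7 were left out for a *Cd8* UMI, 3 for a *Cd4* UMI and 20 for *Cdh5* or *Lyz2*.

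Pooled over all members, the interleukin 17 programme was higher than in the 3 other lymphocyte groups. Summed over 27 measured genes it stood at 3787 CPM (3618 to 3962) in the members, 617 CPM in CD8 T cells, 1775 CPM in CD4 T cells and 416 CPM in NK cells. This order did not hold for most members taken apart. In the 41 without a *Cd163l1* UMI it was at 973 CPM, below CD4 T cells, and in the 24 with one at 10059.9 CPM. By library it was 5290.2, 5479.7, 5693 and 2902 CPM in the members, lowest in library 4. In library 2 a single member held 138 of the 142 UMIs behind this value, and the other 3 members held at most 2 each. A gene was counted as higher or lower when the levels differed at least 2-fold with 10 CPM added to both and at least 20 UMIs were seen over both groups. This list and the others below were chosen with earlier results of these data known. Their counts beside the share of all genes are therefore descriptions and no independent support. Against CD8 T cells 15 of the 17 listed genes with enough UMIs were higher and none was lower, where 5.06% of 10713 genes were higher and 3.83% lower. Against CD4 T cells 15 of 17 were higher and 2, *Maf* and *Icos*, lower, where 3.20% and 3.08% of 9166 genes were. Against NK cells 15 of 16 were higher, where 2.48% of 8587 genes were higher and 2.48% lower. The median log2 fold of the list was 2.56, 1.54 and 2.70 in the 3 comparisons, and that of all genes 0.03, -0.05 and -0.0011.

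*Cd163l1*, the scavenger receptor gene that names the interleukin 17 type, was at 334 CPM (285 to 389) in the members, with 167 UMIs in 24 of 65 cells. It was at 534, 386, 544 and 238 CPM in the members of libraries 1 to 4, present in each library and lowest in library 4, with the level of library 2 resting on 10 UMIs in 1 member. In CD8 T cells it was at 1.01 CPM, and no UMI was seen in CD4 T or NK cells. In endothelial cells 5 of 12361 had a UMI, 0.0404%. With cells thinned to 1000 UMIs each it was found in 26.2% of members and in no CD8 T, CD4 T or NK cell. Without library 4 its level was 515 CPM over 25 members.

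Among transcription factors, *Rora*, which encodes a nuclear receptor, was at 394 CPM (341 to 453) against 39.9, 148 and 38.9 CPM in CD8 T, CD4 T and NK cells. *Maf* was at 166 CPM, above CD8 T (18 CPM) and NK cells (33.2 CPM) and below CD4 T cells (374 CPM). *Sox13* was sparse, with 11 UMIs in 8 members. *Zbtb16*, the gene of the innate-like factor PLZF, had 20 UMIs in 13 members. *Blk*, a kinase gene known from B cells and interleukin 17-making gamma-delta T cells, was at 72 CPM in the members, 0.169 CPM in CD8 T cells and 0 UMIs in CD4 T and NK cells.

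Receptors of the programme ranged from abundant to barely seen. *Il7r*, the interleukin 7 receptor chain, was the most abundant listed gene at 488 CPM (429 to 553), with a UMI in 48 of 65 members and library levels of 391, 232, 608 and 510.1 CPM. It was at 74.5 CPM in CD8 T, 174 CPM in CD4 T and 8.85 CPM in NK cells. *Cxcr6*, a chemokine receptor of tissue lymphocytes, was at 332 CPM, and its library levels of 391, 1621, 639.7 and 156 CPM spread widely, and all 42 UMIs behind the highest, that of library 2, were in 1 member. *Il18r1* and *Il1r1*, receptors for interleukins 18 and 1, were at 208 and 34 CPM. *Il23r*, the receptor for the cytokine that sustains interleukin 17, had 9 UMIs, 1 in each of 9 members, against 2 UMIs in 626 CD8 T cells and none in CD4 T or NK cells.

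The cytokines themselves were sparse. *Il17a* had 14 UMIs in 7 members, 28 CPM (15.3 to 47), with library levels of 11.9, 0, 79.96 and 24.4 CPM, and 1 and 2 UMIs in all CD8 and CD4 T cells. *Il17f* had 1 UMI, *Csf2* had 4 UMIs in 1 member, and *Il22* had none, which by a limit of 3 counts allows a share of up to 4.62% of cells with a UMI at this depth (exact limit 5.52%). *Ccr6*, a chemokine receptor often used to mark interleukin 17 producers, had 2 UMIs in 1 member.

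**Figure D2:**
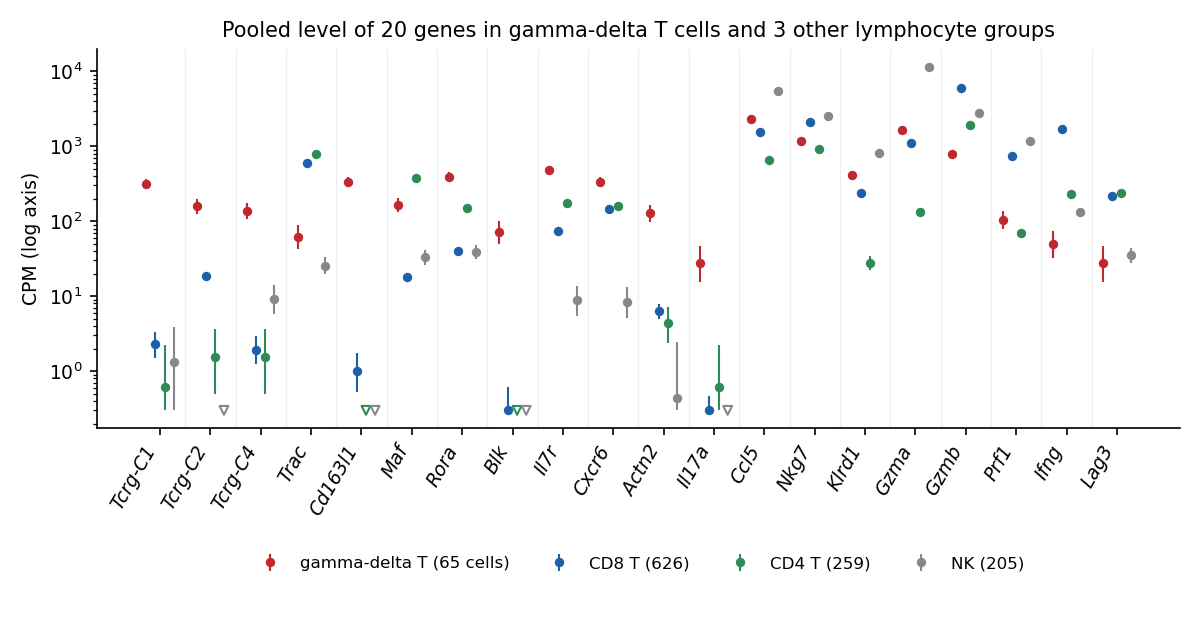
Pooled level in CPM (log axis) of 20 genes in gamma-delta T cells, CD8 T cells, CD4 T cells and NK cells (points), with exact 95% Poisson intervals (lines). Open triangles are genes without a UMI in that group, and levels under 0.3 CPM are drawn at 0.3. Gamma constant genes, Cd163l1, Blk, Il7r and Actn2 stood highest in gamma-delta T cells, whereas Trac, Gzmb, Ifng and Lag3 stood below CD8 T cells.

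The promoters of 4 of these genes are shown, 3 with a match and that of *Cd163l1* without one, because the element AGGTCA is the core bound by the ROR family of nuclear receptors, to which the product of *Rora* belongs. RefSeq promoter windows (GRCm38.p6, 250 bases before to 50 after each start) were found for 21 of the 27 measured genes of the programme. The element, searched as AGGTCA on both strands (TGACCT where it lies on the opposite one), was in a window of 6 of the 21 genes (28.6%): *5830411N06Rik*, *Actn2*, *Ccr6*, *Il17a*, *Il17f* and *Il23r*. It was in 16.3% of all 32851 windows and in a window of 18.1% of 27025 genes. The element may overlap longer nuclear receptor sites, and a match is no evidence of binding. The 250 bases before the start are given 5′ to 3′ on the strand of the gene, with each match in capitals: *Il17a* (chr1:20730655-20730904, plus strand, 1 match on the opposite strand 120 bases before the start), *Cd163l1* (chr7:140218017-140218266, plus strand, no match), *Il23r* (chr6:67491856-67492105, minus strand, a match on the opposite strand 229 and 1 on the same strand 66 bases before the start) and *Actn2* (chr13:12340733-12340982, minus strand, 1 match on the same strand 170 bases before the start).
Il17a: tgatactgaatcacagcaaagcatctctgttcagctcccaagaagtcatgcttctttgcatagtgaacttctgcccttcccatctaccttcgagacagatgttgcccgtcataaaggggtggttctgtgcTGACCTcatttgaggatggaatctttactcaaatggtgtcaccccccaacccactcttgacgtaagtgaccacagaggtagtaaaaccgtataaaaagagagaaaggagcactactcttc
Cd163l1: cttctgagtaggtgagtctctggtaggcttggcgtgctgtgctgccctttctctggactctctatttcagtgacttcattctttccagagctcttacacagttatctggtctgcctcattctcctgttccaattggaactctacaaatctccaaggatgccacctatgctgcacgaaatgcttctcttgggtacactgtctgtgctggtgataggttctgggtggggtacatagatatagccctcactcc
Il23r: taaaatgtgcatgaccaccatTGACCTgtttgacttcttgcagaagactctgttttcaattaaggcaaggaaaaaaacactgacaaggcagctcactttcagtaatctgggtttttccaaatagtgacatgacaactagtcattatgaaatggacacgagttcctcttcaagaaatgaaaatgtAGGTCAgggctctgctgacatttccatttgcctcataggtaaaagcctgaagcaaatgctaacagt
Actn2: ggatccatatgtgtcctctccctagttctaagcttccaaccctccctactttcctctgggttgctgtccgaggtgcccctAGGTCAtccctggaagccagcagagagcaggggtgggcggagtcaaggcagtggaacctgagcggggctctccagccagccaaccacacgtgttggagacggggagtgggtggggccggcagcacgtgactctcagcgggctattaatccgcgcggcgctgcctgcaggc

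Listed genes with neither a cytokine nor a receptor role were also higher in the members. *Tmem176a* and *Tmem176b*, neighbouring genes of membrane proteins, were at 426 and 462 CPM, against 16.2 and 13.9 CPM in CD8 T cells. *Serpinb1a*, a protease inhibitor gene, was at 152 CPM against 12.3, 27.2 and 3.98 CPM, and *Aqp3*, a water and glycerol channel gene, at 54 CPM against at most 3.09 CPM. *Actn2* encodes an actinin of heart and skeletal muscle and was at 128 CPM (98.6 to 163) in the members, against 6.34, 4.33 and 0.442 CPM. Since the tissue was heart, 6 cardiomyocyte genes were read beside it, and they summed to 92 CPM in the members and 401 CPM in endothelial cells, where *Actn2* was at 5.30 CPM. The sum was 16.4 CPM in CD8 T, 44.9 CPM in CD4 T and 123 CPM in NK cells. Without library 4 it was 249 CPM in the members and 204, 332 and 378 CPM in CD8 T, CD4 T and NK cells, and without library 1 it was 36.1 CPM in the members and 10.5, 17.6 and 26.4 CPM in the others. *Myl2* and *Mb*, 2 of 4 cardiomyocyte genes with enough UMIs, were higher in the members than in CD8 T cells, where 5.06% of all genes were, and none was 2-fold apart from CD4 T or NK cells. The part of heart muscle RNA in the *Actn2* level was not tested. Outside the list, *Ramp1*, a subunit of the receptor for the nerve peptide CGRP, was at 224 CPM against 8.88 in CD8 T, 38.7 in CD4 T and 32.3 CPM in NK cells, and the keratin gene *Krt83* at 118 CPM against 2.79, 14.8 and 7.96 CPM.

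The type 1 cytotoxic programme, 26 genes, was summed at 9809.6 CPM (9537 to 10088) in the members. This lay below CD8 T cells (21557 CPM) and NK cells (31707 CPM) and above CD4 T cells (5544 CPM). The library levels of 7199.9, 965, 6157 and 11879 CPM differed widely. Without library 4 the sum was 5887 CPM in the members, close to the 6264 CPM of the CD8 T cells left, with 28755 CPM in NK and 2074 CPM in CD4 T cells. With the 54 members holding a gamma constant UMI it was 7072 CPM. Against CD8 T cells 4 of the 26 genes were higher and 7 lower, where 5.06% and 3.83% of all genes were. Against CD4 T cells 14 were higher and 4 lower (3.20% and 3.08% of all genes), and against NK cells 2 were higher and 15 lower (2.48% and 2.48%). *Ncr1* and *Klrb1c*, among these 15, chose the NK cells, so their direction was fixed. They are also part of the NK sum. The median log2 folds were 0.52, 1.31 and -1.16.

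Several effector genes stood below CD8 T cells. Of the UMIs of *Ifng*, *Gzmb* and *Prf1* in the members, most lay in the 11 without a gamma constant UMI. *Ifng*, the gene of interferon gamma, was at 49.99 CPM (32.3 to 73.8) in all members and 21.3 CPM in the 54 with one, against 1704 CPM in CD8 T cells, and its library levels in the members were 23.7, 0, 208 and 30.5 CPM. *Gzmb*, a granzyme gene, was at 789.8 CPM in all members and 209.9 CPM in the 54, against 5990.3 CPM, and 1 member held 58.7% of its UMIs. *Prf1*, the perforin gene, was at 104 CPM in all members and 13.3 CPM in the 54, with 47 of its 52 UMIs in the 11, against 735 CPM. Without library 4, whose cells make up most of the CD8 T cells, *Gzmb* and *Prf1* were at 57.9 and 11.6 CPM in the members and 105 and 27.3 CPM in CD8 T cells, under 2-fold apart with 10 CPM added. *Ifng* was then at 86.8 CPM in the members and 77.9 CPM in CD8 T cells, the other order, but 13 of the 15 UMIs in these members were in 2 cells of library 3, and the one with 8 of them had no gamma constant UMI. Within library 1 the log2 fold was -0.61. The chemokine genes *Ccl3*, *Ccl4* and *Xcl1* were at 139.97, 332 and 348 CPM in all members and 149, 252 and 287 CPM in the 54, against 1325, 2607 and 2652 CPM. *Tnf* went the other way, at 99.98 CPM in all members and 122 CPM in the 54 against 23.5 CPM, and *Ccl5* was the most abundant gene of the list at 2277 against 1546 CPM, under 2-fold apart. A single member of library 4 held 40% of the *Tnf*, 40% of the *Ccl3* and 24.1% of the *Ccl4* UMIs. The same member held 28.9% of the UMIs of *S100a9*, a granulocyte gene, and a mixed cell was not tested for.

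The level of *Gzma*, the granzyme A gene, rested on few members. It was at 1654 CPM (1543 to 1770.2) in all members, but 54.3% of its UMIs came from 1 member of library 4, and in the 54 members with a gamma constant UMI it was at 133 CPM. In the 11 without, it was at 6281 CPM, beside 11473 CPM in NK cells. Receptors of the NK family differed. *Klra8* and *Klra4* were lower than in NK cells, at 9.998 against 309 CPM and 24 against 555 CPM, and had no UMI in the 54. *Klrd1*, *Klrc1* and *Klrk1* were at 408, 216 and 286 CPM in all members and 359, 199 and 226 CPM in the 54. In NK cells they were at 822, 175 and 601 CPM, where *Klrk1* alone of the 3 was counted as lower in the members, and in CD4 T cells at 27.8, 14.2 and 24.4 CPM.

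Among the 10 genes named as lower in each comparison, *Trac*, *Tnfrsf4*, *Cd6* and *Lag3* were shared by the comparisons with CD8 and CD4 T cells, and *Prf1* by those with CD8 T and NK cells. *Foxp3*, the defining factor of regulatory T cells, had no UMI in the members (74.9 CPM in CD4 T cells), and *Izumo1r*, a folate receptor gene, was at 19.995 against 227 CPM in these cells. *Cd5* and *Cd6*, receptors that dampen T-cell receptor signals, were at 24 against 249 CPM and 12 against 186 CPM, and *Cd6* was at 12 against 100.3 CPM in CD8 T cells. Of the genes higher in the members than in CD4 T cells, *Cd7*, a surface receptor of T and NK cells, was at 372 against 18.6 CPM. Genes lower than in NK cells included *Klrb1a* at 4.0 against 76.5 CPM, *Klrg1* at 6.0 against 72.1 CPM and *Gzmc* at 59.99 against 421 CPM. The genes higher than in NK cells held *Ramp3*, a relative of *Ramp1*, at 132 against 4.42 CPM, beside *Il7r*, *Cxcr6* and *Rora*. Of the genes in this selection, 75 gene comparisons in all, 74 kept their direction without library 4 and 62 stayed past 2-fold.

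Among the members both programmes lay largely in different cells. In 24 members a *Cd163l1* UMI was seen and in 41 none was, with medians of 6152.5 and 7193 UMIs. This split was chosen after the values were seen and its genes are described only. The interleukin 17 programme summed to 10059.9 CPM (9566 to 10572) in the 24 and 973 CPM (872 to 1083) in the 41, and the type 1 cytotoxic programme to 1369 CPM (1191 to 1566) and 13596 CPM (13209.7 to 13990.5). In each of the 24 cells the first programme had more UMIs than the second, and in 4 of the 41. Per 10000 UMIs, the first programme ran from 26.4 over a median of 103 to 307 in the 24, and from 0 over 7.26 to 178 in the 41. The second ran from 0 over 12.3 to 44.5 and from 0 over 113 to 451. The ranges overlapped for both programmes. *Cd163l1* belongs to the first programme and fixed the split. Without its own UMIs the first programme stood at 8982 and 973 CPM, with medians of 94 and 7.26 per 10000 UMIs, and still had more UMIs than the second in 24 of 24 and 4 of 41 cells. Each of the 24 had a *Tcrg-C1* UMI, whereas the 41 included the 11 members without a gamma constant UMI. *Gzma*, *Gzmb* and *Prf1* were at 6281, 2554 and 380 CPM in these 11 and 208, 280 and 22.6 CPM in the other 30. *Ccl5* and *Klrd1* were lower in the 11, at 1576 and 558 against 4175 and 609 CPM. The sum in the 41 is thus partly that of cells for which the label may not hold.

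**Figure D3:**
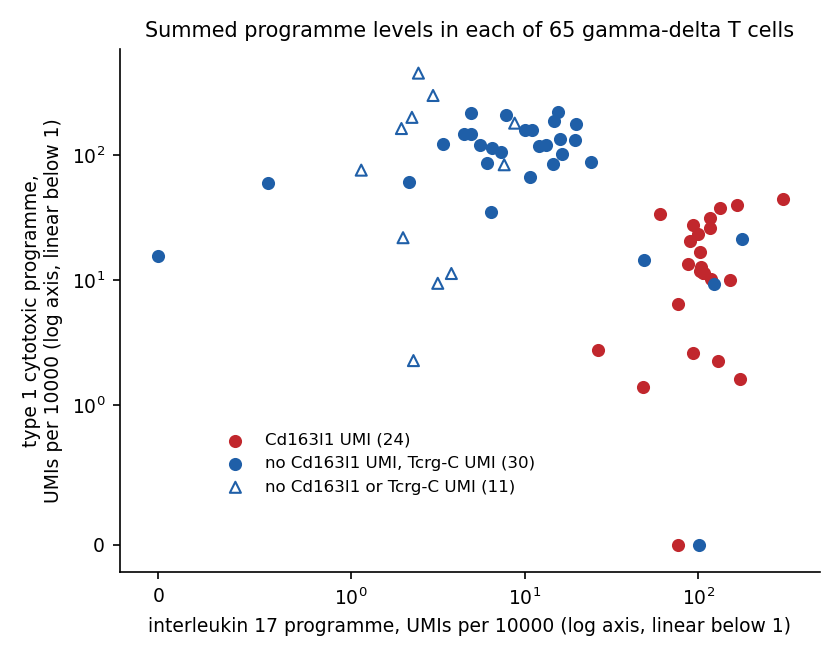
Summed UMIs per 10000 of the interleukin 17 programme (horizontal) and the type 1 cytotoxic programme (vertical) in each of 65 gamma-delta T cells, on log axes that are linear below 1. Red points are the 24 cells with a Cd163l1 UMI, blue points 30 without it that had a gamma constant UMI, and open triangles 11 with neither. Red cells lie at the right, and most others at the upper left.

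Genes found with *Cd163l1* included most of the programme and a delta variable gene. Of 15 listed interleukin 17 genes with enough UMIs, 14 were at least 2-fold higher in the 24 cells and none lower, where 8.08% of 3727 genes were higher and 8.02% lower. *Cd163l1* is 1 of the 14 and was fixed by the split. The 20 higher genes most apart by fold also held *Dcn*, *Apoe* and *Mgp*, of which 1 member held 91.6%, 85.3% and 83.7% of UMIs, and *Il2ra*, *Krt83*, *Ckb* and *Cryba4*, which are not of the programme. *Tmem176b* had a UMI in 24 of 24 and 8 of 41 cells, at 1401 and 40.6 CPM, *Maf* in 22 and 10 cells, at 465 and 31.9 CPM, and *Actn2* in 19 and 2 cells, at 394 and 8.69 CPM. Every UMI of *Il17a*, *Il23r*, *Sox13*, *Il17re* and *Kcnk1* lay in the 24 cells, and *Il17a* reached 90.4 CPM there. *Trdv4*, a variable gene of the delta chain at chr14:54074905-54075515, had a UMI in 15 of the 24 cells, 5 of 6, 1 of 1, 3 of 5 and 6 of 12 in libraries 1 to 4, and in 1 of the 41. It was also seen in 12 of 205 NK cells. *Tcrg-V6* had 3 UMIs, all in the 24 cells, and *Tcrg-V1* 5, all in the 41. *Trgv2* had 13 UMIs in 13 members, 3 of them among the 24. Libraries made from the 3' end read little of the variable segments, and most members had no variable gene UMI.

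The same 24 cells lacked genes of the other programme. *Klrd1* had no UMI in the 24 cells and one in 31 of 41, and *Cd27* none in the 24 and one in 26 of 41. A count of 0 of 24 allows a share of cells with a UMI of up to 12.5% by a limit of 3 counts, and the exact interval reaches 14.2%. By library, *Klrd1* was seen in 0 of 6 and 5 of 6 cells in library 1, 0 of 5 and 2 of 4 in library 3, and 0 of 12 and 24 of 28 in library 4, with and without *Cd163l1*. In library 2 it was in none of 4 members. With cells thinned to 1000 UMIs the shares were 0 and 36.6% for *Klrd1* and 0 and 24.4% for *Cd27*. *Nkg7*, a granule gene, was in 4 of 24 and 31 of 41 cells, *Ccl5* in 8 and 36, and *Cd2*, an adhesion receptor gene, in 1 and 35. Both *Cd163l1* and *Nkg7* were seen in 4 members, *Cd163l1* alone in 20, *Nkg7* alone in 31 and neither in 10. Of 24 type 1 genes with enough UMIs 20 were lower in the 24 cells and none higher, beside 8.02% and 8.08% of all genes, at a median log2 fold of -3.22. The 41 cells of this contrast included the 11 without a gamma constant UMI. Among the other 4, *Cxcr3* was at 123 and 98.5 CPM, *Klrk1* at 207 and 322 CPM and *Tnf* at 90.4 and 104 CPM, each under 2-fold apart.

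Further genes told the same 24 cells from the 41. *S100a4*, a calcium-binding protein gene, was at 2150.2 and 272 CPM, *Rora* at 1014 and 116 CPM and *Icos*, a costimulatory receptor gene, at 633 and 75.3 CPM. *Ltb4r1*, the leukotriene B4 receptor gene, was at 232 and 11.6 CPM. *Bcl2a1a* and *Bcl2a1d*, near-identical survival genes whose reads may be split unevenly, were at 181 and 2.90 CPM and at 504 and 29 CPM. Lower in the 24 were *Lck*, the kinase gene next to the T-cell receptor, at 12.9 and 330.2 CPM and the costimulatory receptor gene *Cd28*, at 0 UMIs and 209 CPM. *Il7r* was found in 24 of the 24 and 24 of the 41 cells and differed less, at 839 and 330.2 CPM. Without library 4, 306 of 1281 genes (23.9%) were 2-fold apart between the 12 and 13 cells left, against 600 of 3727 (16.1%) in all.

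**Figure D4:**
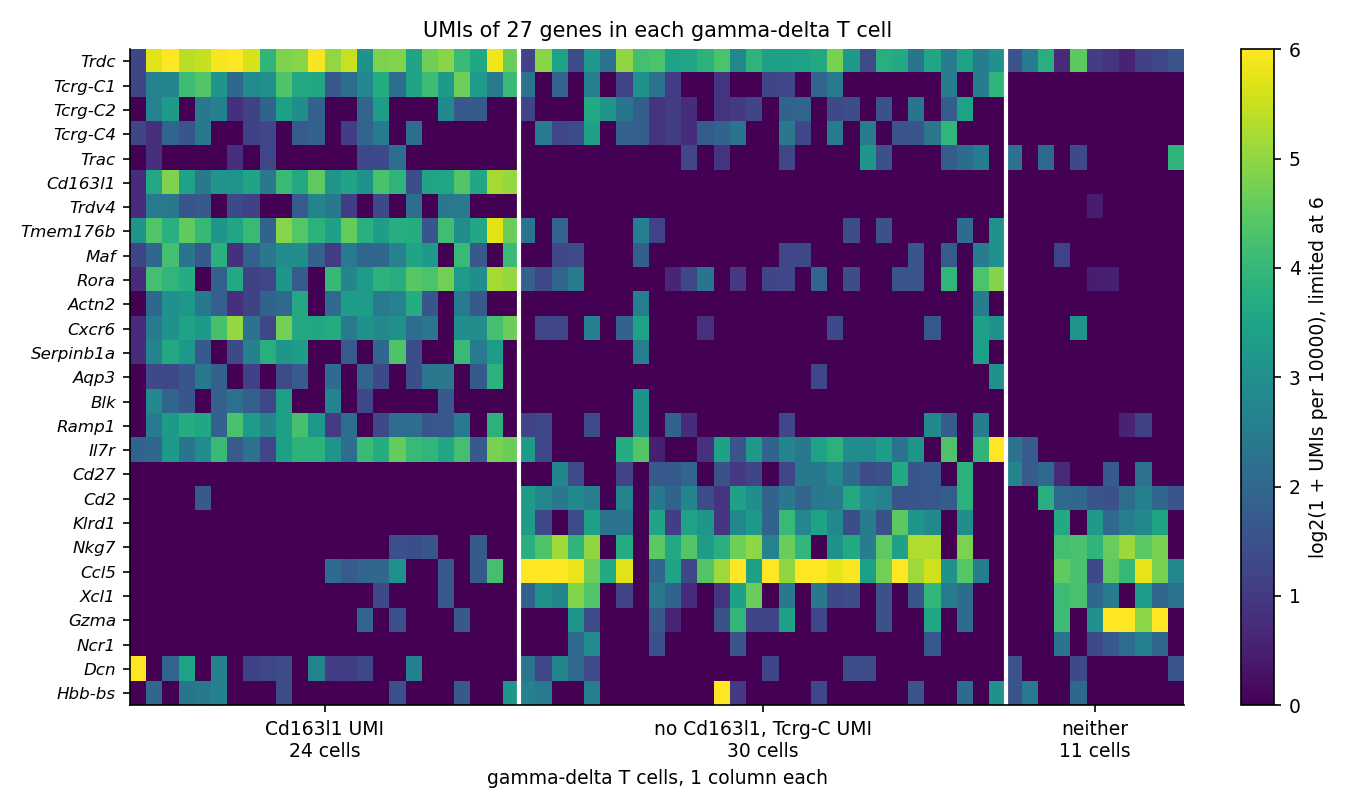
UMIs of 27 genes (rows) in each of 65 gamma-delta T cells (columns), as log2 of 1 plus UMIs per 10000, limited at 6. White lines part cells with a Cd163l1 UMI (24), cells without it that had a gamma constant UMI (30) and cells with neither (11). Tmem176b, Maf, Rora and Cxcr6 fill the left block, Cd2, Klrd1, Nkg7 and Ccl5 the middle block, and Gzma and Ncr1 mark 6 cells at the right. Single cells hold most Dcn and Hbb-bs.

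The 41 members without *Cd163l1* were of more than 1 kind. The 30 with a gamma constant UMI had *Ccl5* at 4175 CPM, *Klrd1* at 609 CPM in 25 cells, *Ly6c2* at 1273 CPM, *Il7r* at 501 CPM in 22 cells and *Tcf7*, a factor of memory and naive T cells, at 244 CPM in 21 cells. In them *Prf1* was at 22.6 CPM in 3 cells, *Gzmb* at 279.9 CPM and *Gzma* at 208 CPM, whereas *Nkg7* was at 1629 CPM in 24 cells. The 11 with neither were themselves mixed. All UMIs of *Gzma*, *Prf1*, *Eomes* and *Klrd1* in the 11 lay in the 6 cells with *Ncr1*, at 7828, 473, 181 and 695 CPM, and *Gzmb* was at 3133 CPM there. The other 5 held the *Il7r* UMIs, in 2 cells, and the *Trac* UMIs, in 4 cells. *Trdc* followed the same order, at 3609 CPM in the 24, 1241 CPM in the 30 and 251 CPM in the 11, with median depths of 6152.5, 7155 and 7193 UMIs. *Trdc* chose the members, so these levels are given as a description.

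Trafficking genes differed between the kinds of member. The list of recirculating and naive T-cell genes was summed at 368 CPM (279 to 477) in the 24 with *Cd163l1* and 1549.6 CPM (1421 to 1687) in the 41 without, and 7 of 7 genes with enough UMIs were lower in the 24, where 8.02% of all genes were, at a median log2 fold of -1.76 beside -0.01 for all genes. Among them *S1pr1*, the receptor for leaving tissue, had a UMI in 4 and 18 cells, and *Klf2*, a factor that drives it, in 6 and 31. The tissue residence list was summed at 5572 and 2332 CPM, with a median log2 fold of 0.81 and 4 of 9 genes higher in the 24 (8.08% of all genes were): *Itgb7*, *Ramp1*, *S100a4* and *Crem*. *Rgs1* and *Cd69*, also of that list, were at 619.9 and 602 CPM and at 271 and 211 CPM. *Itgae*, the integrin of epithelial residents, had 7 UMIs in 6 members. *Cxcr6* was at 929.8 and 63.7 CPM and *Ccr2* at 465 and 133 CPM, whereas *Ccr7* was at 6.46 and 104 CPM.

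Signalling receptors and their ligands were read across the tissue. Of 21 cytokine receptor genes 20 had enough UMIs against CD8 T cells, and *Il1r1*, *Il7r*, *Il18r1*, *Ifngr1*, *Tgfbr1* and *Tgfbr2* were higher in the members and none lower, at a median log2 fold of 0.67. Of all genes 5.06% were higher and 3.83% lower in this comparison. Against CD4 T cells 3 of 20 were higher and 4 lower, where 3.20% and 3.08% of all genes were, and against NK cells 3 of 18 were higher and 1 lower, where 2.48% and 2.48% were. Of 10 chemokine receptor genes *Ccr2*, *Cxcr4* and *Cxcr6* were higher than in CD8 T cells and none lower. *Il2ra*, the alpha chain of the interleukin 2 receptor, was at 232 CPM in the 24 members with *Cd163l1* and 11.6 CPM in the 41 without. Among ligands, *Il1b* was at 3251 CPM in macrophages (6195 cells with at least 10 *Lyz2* UMIs) and *Cxcl16*, the ligand of *Cxcr6*, at 444 CPM there and 51.7 CPM in endothelial cells. Granulocytes were not removed from this macrophage group. The granulocyte list was summed at 3149 CPM in it, and at 1100 CPM without library 2. *Il18* was at 52.7 CPM in macrophages, and 23.3 CPM there without library 4. *Il23a* and *Il7* were low, at 5.97 and 1.32 CPM over all filtered cells, and *Il23a* was at 2.65 CPM without library 2.

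Among 12 ligand genes with enough UMIs, *Il1b*, *Ltb* and *Tnfsf11* were higher in the members than in CD8 T cells and *Il10* lower, where 5.06% and 3.83% of all genes were. Against CD4 T cells none of 11 was higher, and *Il10*, *Il13*, *Il21* and *Lta* were lower, where 3.20% and 3.08% of all genes were. Against NK cells *Il1b*, *Ltb*, *Tnfsf11* and *Tnfsf8* of 6 were higher and *Tgfb1* lower, where 2.48% and 2.48% of all genes were. The median log2 folds against CD8 T, CD4 T and NK cells were 0.54, 0.02 and 1.44. *Ltb*, the lymphotoxin beta gene, was their most abundant ligand gene at 712 CPM (639.8 to 789.7), against 275 CPM in CD8 T, 450.1 CPM in CD4 T and 113 CPM in NK cells, and was seen in 61 of 65 members. *Tnfsf11*, the RANKL gene, had 19 UMIs, all in 6 of the 24 cells with *Cd163l1*. *Il1b* was at 398 CPM in the members, but its library levels were 0, 77.2, 0 and 602 CPM and 1 member held 35.2% of its UMIs. In the macrophage group, from which granulocytes were not removed, it was at 2238, 4834, 1098 and 3548 CPM in libraries 1 to 4. In CD8 T cells it was at 129 CPM over all libraries. The part of free macrophage or granulocyte RNA in the *Il1b* of the members was not tested.

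Checkpoint receptor and glycolysis genes were compared next. Their lower sums than in CD8 T cells, and the calls of *Lag3* and *Tnfrsf4*, rested on library 4, which held 545 of the 626 CD8 T cells. *Cd6*, also of the checkpoint list, was lower in both libraries with within-library folds, at log2 folds of -3.56 in library 1 and -2.14 in library 4. Of 13 checkpoint and costimulatory receptors none was higher than in CD8 T cells and 6 were lower, and against CD4 T cells 1 was higher and 9 lower. Of all genes 5.06% were higher and 3.83% lower than in CD8 T cells, and 3.20% and 3.08% than in CD4 T cells. The median log2 folds against CD8 T, CD4 T and NK cells were -0.91, -1.41 and 0.05. *Lag3* was at 28 CPM (15.3 to 47) against 216 and 237 CPM, and *Tnfrsf4*, the OX40 gene, at 9.998 against 138 and 956 CPM. Without library 4 neither gene had a UMI in the 25 members left, and *Lag3* was at 17.5 and 11.9 CPM and *Tnfrsf4* at 3.89 and 409.5 CPM in the CD8 and CD4 T cells left, and of these comparisons that of *Tnfrsf4* with CD4 T cells alone held the 20 UMIs asked for. *Pdcd1*, the PD-1 gene, was near CD8 and CD4 T cells in the members as a whole, at 209.9 against 243 and 203 CPM. Against NK cells 1 of 7 genes, *Pdcd1*, was higher and 0 were lower, where 2.48% and 2.48% of all genes were. *Pdcd1* lay at 562 CPM in 16 of the 24 cells with *Cd163l1* and at 52.1 CPM in 10 of the 41 without. Of 12 glycolysis genes 7 were lower than in CD8 T cells and 7 lower than in CD4 T cells, beside the same 3.83% and 3.08% of all genes, none was higher, and none was 2-fold apart from NK cells, with median log2 folds of -1.04, -1.09 and -0.19. *Ldha* was at 668 against 1500.5, 1452 and 810.1 CPM, and *Tpi1* at 209.9 against 676, 640.3 and 325 CPM. The glycolysis sum was 2337, 4939, 3726 and 4710.2 CPM in libraries 1 to 4. Over all libraries the checkpoint and glycolysis sums were 876 and 4199 CPM in the members, 2002 and 9176 CPM in CD8 T and 3578 and 9470.4 CPM in CD4 T cells. In the 212 T cells without *Cd4*, *Cd8* or *Trdc* UMIs they were 1138 and 5145 CPM, nearer to the members. Without library 4 they were 712 and 3230.1 CPM in the members, above the 545 and 2609 CPM of CD8 T cells and below the 1715 and 3297 CPM of CD4 T cells.

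Of 16 cell cycle genes 5 were lower than in CD8 T cells and 5 lower than in CD4 T cells, with none higher (3.83% and 3.08% of all genes were lower), at median log2 folds of -0.85 and -0.78. The sum was 2973 CPM (2824 to 3128) in the members, 4636 CPM in CD8 T and 4589.6 CPM in CD4 T cells, and 1 member held 24.4% of it. It was 2372, 502, 896 and 3721 CPM in libraries 1 to 4, and 1833 CPM in the 212 T cells without *Cd4*, *Cd8* or *Trdc* UMIs, below the members. Without library 4 it was 1557 CPM in the members, 643 CPM in CD8 T and 2193 CPM in CD4 T cells, so that the order of members and CD8 T cells turned. At least 2 UMIs of *Mki67* and *Top2a* were seen in 9 of 65 members, 13.8% (6.53 to 24.7), of which 7 lay in library 4. Of 15 immediate early and stress genes 12 were higher than in CD8 T, 7 higher than in CD4 T and 2 higher than in NK cells, with none lower, where 5.06%, 3.20% and 2.48% of all genes were higher. The median log2 folds were 1.30, 0.78 and 0.21. Their sum was 7612 CPM in the members and 8108 CPM in the 212 T cells, and without library 4 it stayed above CD8 T cells, at 11138 against 7082 CPM. *Hspa1a* and *Hspa1b*, heat shock genes, were at 352 and 234 CPM, against 45.6 and 29.4 CPM in CD8 T cells. In endothelial cells they were at 1631 and 992 CPM. Of 16 interferon response genes 5 were higher than in CD8 T cells and 1, *Ifi27l2a*, was lower, against CD4 T cells 1 was higher and 1 lower, and against NK cells 4 were higher and none lower. Of all genes 5.06%, 3.20% and 2.48% were higher and 3.83%, 3.08% and 2.48% lower in these comparisons. The median log2 folds were 0.78, 0.28 and 0.59. The sum was 2365 CPM in the members, 1895 CPM in CD8 T, 4345 CPM in CD4 T and 1394 CPM in NK cells. Without library 4 it was 857 CPM in the members and 1262, 1810.1 and 828 CPM in CD8 T, CD4 T and NK cells, so that the order of members and CD8 T cells turned. The sum of this list was 818, 502, 1056 and 3162 CPM in the members of libraries 1 to 4, highest in library 4.

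**Figure D5:**
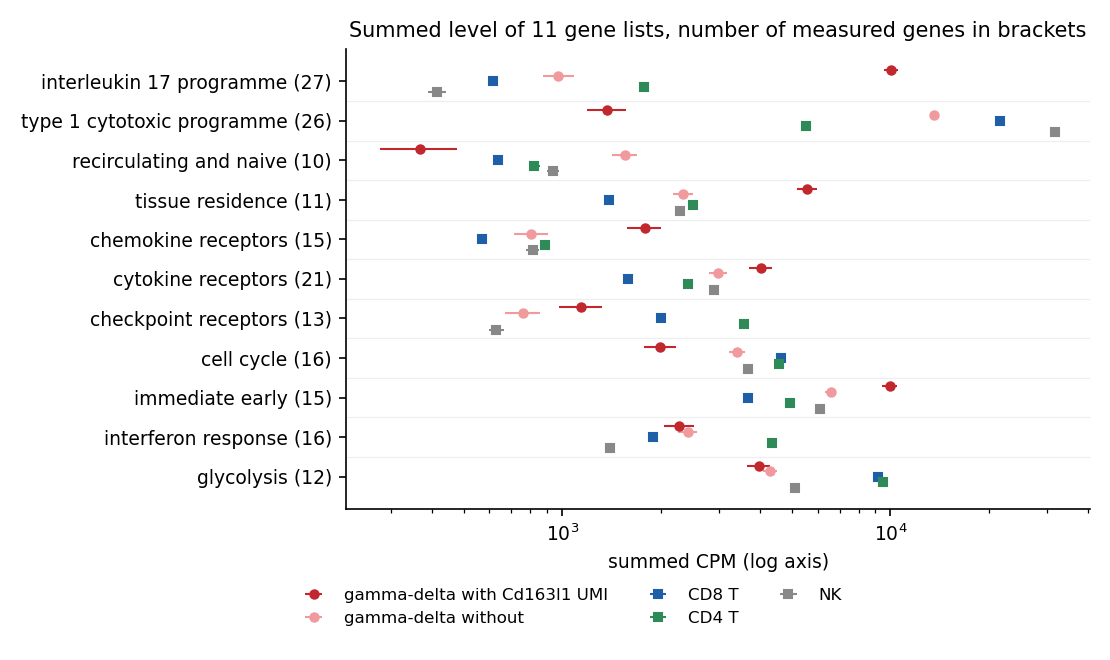
Summed level in CPM (log axis) of 11 gene lists in gamma-delta T cells with and without a Cd163l1 UMI, CD8 T cells, CD4 T cells and NK cells (points), with exact 95% Poisson intervals (lines) and the number of measured genes in brackets. The interleukin 17 programme was at 10059.9 CPM with and 973 CPM without Cd163l1, and the type 1 cytotoxic programme at 1369 and 13596 CPM. The cells without Cd163l1 include 11 without a gamma constant UMI. Glycolysis lay below CD8 and CD4 T cells in both.

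RNA of other cells was measured in the members over 7 marker lists. It made up a median of 0.174% of UMIs, and every member had at least 3 UMIs of it. A pair of members stood apart, with 22.6% and 3.14%, and the next had 0.785%. The first, in library 4, held 97.8% of all erythroid UMIs of the members. The erythroid sum of 5167 CPM fell to 120.1 CPM without the pair. The second, in library 1, had 1 *Cd163l1* UMI and held 91.6% of the *Dcn*, 97.1% of the *Gsn* and 85.3% of the *Apoe* UMIs, genes of fibroblasts and macrophages. All 4 fibroblast genes with enough UMIs were higher in the 24 members with *Cd163l1*, where 8.08% of all genes were, and this cell stood among the 24. Without the pair *Dcn* was at 78 CPM in place of 876, and the higher levels of *Hbb-bs*, *Hba-a2*, *Gsn*, *Dcn* and *Apoe* in the members are not read as levels of gamma-delta T cells. The interleukin 17 sum was 3886 CPM and the type 1 cytotoxic sum 10172 CPM without the pair.

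The other lists were at lower levels. Macrophage genes were summed at 562 CPM (8 genes, 18411 CPM in macrophages), endothelial genes at 302 CPM (7 genes, 25977 CPM in endothelial cells), granulocyte genes at 159.96 CPM (11.9, 1466, 0 and 125 CPM in libraries 1 to 4) and B-cell genes at 28 CPM. By library the macrophage sum was 35.6, 77.2, 319.9 and 782 CPM and the endothelial sum 463, 1466, 479.8 and 134 CPM, and without library 4 they were 145 and 619 CPM. Without library 2 the granulocyte sum was 88.6 CPM. The most abundant genes of these lists were *Lyz2*, *Fabp4*, *S100a9* and *Cd79b*, and *Cdh5*, which the rule bars, *Cd79a* and *Ms4a1* had no UMI. The rule also caps *Lyz2*, and *Lyz2* and *Cdh5* chose the macrophages and endothelial cells. The contrasts with these cells were therefore partly fixed. The list of type 2 innate lymphoid genes was at 56 CPM, with *Il5*, *Il13* and *Rxrg* at 0 UMIs. Among 12 lipid handling genes *Fabp5*, a fatty acid carrier gene, was at 39.99 against 194 CPM in CD8 T cells. The lipid sum without the pair of members was 603 CPM, against 648 CPM in CD8 T cells.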

How the data were processed

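Cells of 4 mouse heart grafts had been sequenced by a droplet 3' method. The authors deposited 1 merged matrix of whole UMI counts (30905 genes, 53824 cells), whose header names Cell Ranger 3.0.0. The submitters' processing notes also name CASAVA 1.8, Seurat and mm10. Here cells with over 200 genes and under 20% mitochondrial UMIs were kept, no doublet caller was run and no per-sample column was left unused. Counts were summed over the cells of a group and divided by non-mitochondrial UMIs. Folds were taken with 10 CPM added to both groups. Each comparison was a description, because the libraries were pooled as 1 sample and no test was run. CD8 and CD4 T cells had at least 3 *Cd3* UMIs, a UMI of their own coreceptor alone and no *Trdc* UMI, NK cells at least 2 UMIs of *Ncr1* and *Klrb1c* and none of *Cd3*, endothelial cells at least 3 of *Cdh5*. Named genes were those of 22 lists, and per comparison the 15 highest and 10 lowest by fold with a UMI in at least 10% of cells and the same direction in every library with at least 10 cells of both groups. For the split by *Cd163l1* they were the 20 most apart each way with a UMI in at least 40% of cells. Cells were thinned with a fixed seed to 1000 UMIs to compare shares of cells. The members and lists were chosen with earlier results of these data known. The summing and thinning were tested on simulated data. Python 3.11.15, numpy 2.4.6, pandas 2.3.3 and scipy 1.17.1 were used. Gene positions are those of the GENCODE annotation and promoters those of RefSeq, both on GRCm38. Alternative thresholds, filters, weights and left-out libraries were tried.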

Additional observations from a re-analysis of the deposited data

How the results depend on the processing

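The members numbered 65, and *Cd163l1*, the interleukin 17 programme and the type 1 cytotoxic programme stood at 334, 3787 and 9809.6 CPM. Of 126 values recomputed under alternatives, 79 stayed within their counting interval or, for counts of genes, within 1.5 times, and 47 moved. The same 3 levels were 405, 4361 and 7424 CPM with at least 2 *Trdc* UMIs, 266, 3076 and 12107 CPM with at least 2 *Cd3* UMIs, 445, 4968 and 7413 CPM without the 10% of members richest in UMIs and 508, 5108 and 8154 CPM with members thinned to 1000 UMIs. With at least 5 *Cd3* UMIs the programmes stood at 4196 and 8686 CPM. The interleukin 17 programme was at 3560.0 CPM with under 10% mitochondrial UMIs and at 4096 CPM with libraries of at least 10 members weighted equally. Genes 2-fold apart from CD8 T, CD4 T and NK cells numbered 952, 575 and 426. They were 2803, 1488 and 1022 with 1 CPM added, 200, 134 and 110 with 50 CPM added, and 1476, 920 and 677 without the richest 10%. With at least 100 UMIs asked for, they were 322 against CD4 T and 210 against NK cells. Between members with and without *Cd163l1* 600 of 3727 genes were apart (16.1%), 283 with 50 CPM added (7.59%), 2251 of 11963 with no filter on UMIs (18.8%), 110 of 714 with at least 100 UMIs (15.4%) and 109 of 479 after thinning (22.8%). Alternatives chosen after seeing the data kept the 54 members with a gamma constant UMI, with 444, 4939 and 7072 CPM, or left out the pair of members richest in *Dcn* and *Hbb-bs*, with the type 1 cytotoxic programme at 10172 CPM. The cause of these shifts was not tested.

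With each library left out in turn, members numbered 25 to 61, *Cd163l1* stood at 293 to 515 CPM, the interleukin 17 programme at 3482 to 5465 CPM and the type 1 cytotoxic programme at 5887 to 10339 CPM, and genes 2-fold apart numbered 567 to 1050 (CD8 T), 486 to 650 (CD4 T), 404 to 651 (NK) and 306 to 600 (*Cd163l1*). Without library 4 fewer genes were tested, and the shares apart were 12.4%, 12.8%, 12.2% and 23.9%, against 8.89%, 6.27%, 4.96% and 16.1% in all libraries. Without it the 3 levels were 515, 5465 and 5887 CPM. Of the 75 named gene comparisons, 72 to 75 kept their direction under the alternatives. These genes were chosen in the same cells by fold and by a shared direction in libraries 1 and 4. The kept direction was therefore partly fixed and supports nothing. Those that turned were *Gsn* and *Dcn* with at least 5 *Cd3* UMIs, without library 1 or without the pair of members, and *Ifng* against CD8 T cells without library 4. Leaving out members with at least 3 UMIs of other-cell genes gave no value, because 0 were left. No paired analysis was run, although the cell groups shared libraries, and no result comes from a test. Within-library folds were taken in libraries 1 and 4, which had at least 10 members. Over 65 cells, a gene at 0 UMIs allows, by 3 counts, a share of up to 4.62% of cells with a UMI, and sparse genes such as *Il23r* rest on few molecules.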
